A study of Mus musculus with 12 samples.

Results

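The comparison is between macrophages without IRAK1 and IRAK2 (the double knockout) and macrophages without IRAK2 alone, after 2, 4 and 8 h of MALP-2 at 100 ng/ml. MALP-2 is a lipopeptide from mycoplasma that is sensed by TLR2 together with TLR6. All cells were peritoneal macrophages drawn out with thioglycollate, and both groups carry the IRAK2 deletion, so the groups differ by label in IRAK1. These are 6 of the 12 arrays of the study, 3 of the double knockout and 3 of the IRAK2 knockout, paired by time. The other 6 are wild-type macrophages at 0, 2, 4 and 8 h and 1 unstimulated array of each knockout. Strain, sex, age, and the pooling of mice are items the sources used here do not give. Of 18194 genes read, 10932 had a mean over the 6 arrays at or above 3.83 log2, the median of all values outside the double-knockout 0 h array, which is called the floor below. Levels are log2 values, so a difference of 1 is 2-fold.

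TLR2, like the interleukin 1 receptor, signals through the adaptor MyD88, which gathers the kinases IRAK4, IRAK1 and IRAK2 into one complex. IRAK1 and IRAK2 both engage the ubiquitin ligase TRAF6, which activates the kinase TAK1 and through it NF-kB and the MAP kinases. Macrophages answer with cytokines, chemokines and inhibitors of the same pathway. The IRAK2 knockout still has IRAK1, and the double knockout has neither.

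For each MALP-2 response left in the IRAK2 knockout, the question was whether it was still present without IRAK1. Promoters of 2 genes whose induction was lost and 2 whose induction was kept at all 3 times are printed because they stand for the opposite outcomes described below. They are RefSeq sequences of build GRCm38.p6, from 250 bases before to 50 after the start of the transcript, written 5′ to 3′ on the strand of the gene. Capitals mark a loose NF-kB-like motif on either strand, made of GGG, any 5 bases and CC. Lcn2, which makes an iron-withholding protein, lies at chr2:32387690-32387989 (minus strand) and Ccl3, a chemokine gene, at chr11:83649329-83649628 (minus strand), and both were lost. Acod1, which makes itaconate, lies at chr14:103046762-103047061 (plus strand) and Clec4e, the receptor Mincle, at chr6:123289822-123290121 (minus strand), and both were kept.
Lcn2: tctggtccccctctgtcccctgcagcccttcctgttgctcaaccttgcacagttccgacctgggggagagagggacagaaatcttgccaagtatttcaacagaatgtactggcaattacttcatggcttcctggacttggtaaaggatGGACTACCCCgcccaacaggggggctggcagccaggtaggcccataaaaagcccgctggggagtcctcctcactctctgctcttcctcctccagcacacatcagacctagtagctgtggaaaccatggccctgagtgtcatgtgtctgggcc
Ccl3: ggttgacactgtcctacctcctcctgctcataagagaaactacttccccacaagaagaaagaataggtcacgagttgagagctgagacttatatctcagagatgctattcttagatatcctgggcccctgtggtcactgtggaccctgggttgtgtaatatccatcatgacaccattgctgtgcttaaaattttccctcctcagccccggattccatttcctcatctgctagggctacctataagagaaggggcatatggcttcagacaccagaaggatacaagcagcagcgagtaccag
Acod1: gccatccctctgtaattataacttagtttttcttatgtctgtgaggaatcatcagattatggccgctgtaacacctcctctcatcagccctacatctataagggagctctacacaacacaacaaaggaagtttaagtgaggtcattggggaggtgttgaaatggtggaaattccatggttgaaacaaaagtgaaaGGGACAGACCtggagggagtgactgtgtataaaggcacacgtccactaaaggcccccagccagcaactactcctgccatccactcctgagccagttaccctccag
Clec4e: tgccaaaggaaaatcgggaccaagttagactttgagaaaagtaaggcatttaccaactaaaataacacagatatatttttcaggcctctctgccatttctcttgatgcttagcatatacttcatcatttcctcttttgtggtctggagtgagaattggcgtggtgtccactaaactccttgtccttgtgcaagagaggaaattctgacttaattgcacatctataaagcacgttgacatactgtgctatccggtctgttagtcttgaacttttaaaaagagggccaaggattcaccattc

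One match starts 102 bases before the start of Lcn2 and one 55 bases before that of Acod1, while Ccl3 and Clec4e hold none. A lost and a kept gene thus each have the match. Over genes induced at least 4-fold in wild type, it was in 69.1% of 55 promoters of lost genes and 74.8% of 103 promoters of kept genes, against 71.7% of 8882 promoters of all genes tested and 50.8% of all 32851 promoters in the table. A stricter form, GGG, any 2 bases and TTTCC, was in 3 of 55 lost (5.45%) and 4 of 103 kept (3.88%), against 2.00% of all genes tested and 1.63% of all promoters. The AP-1 letters TGANTCA were in 10.9% of lost and 13.6% of kept genes, against 6.26% of all genes tested and 7.81% of all promoters. Both strands were searched, and every match to the stricter form also matches the loose one. Kept in these counts means within 2-fold of the IRAK2 knockout or above it, whether or not that genotype responded.

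Transcripts of the targeted genes did not mark the double knockout clearly. The Irak1 probeset with the highest signal read 8.25, 8.31 and 8.11 at 2, 4 and 8 h in the double knockout, against 8.39, 8.31 and 8.52 in the IRAK2 knockout (difference -0.18, SE 0.14, adjusted p 0.376). Of its other probesets one was lower by -1.07, with 4.39, 4.72 and 4.48 in the double knockout against 5.73, 5.44 and 5.63 in the IRAK2 knockout. The remaining 2 had differences of -0.20 and -0.43. Irak2 read 5.19, 4.61 and 5.09 in the double knockout, against 5.51, 4.71 and 4.65 in the IRAK2 knockout (0.01, adjusted p 0.981). The sources used here do not place the probes relative to the deletions, so these values check the labels only in part.

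The double-knockout arrays had weaker signal at the 5′ ends of transcripts. For Gapdh, the 5′ minus 3′ control probesets stood at -5.29, -5.90 and -4.36 at 2, 4 and 8 h in the double knockout, against -3.84 to -3.42 in the other 8 arrays used (double-knockout 0 h left out). For actin they stood at -4.25, -4.68 and -3.87, against -3.72 to -3.18. The groups do not overlap for either control, as the plot of these values shows. The transferrin receptor controls went the other way (-2.28, -2.35 and -2.37 in the double knockout, against -4.22 to -3.83), with a 5′ probeset under the floor on every array, and Tfrc itself was called lower. Pyruvate carboxylase had its highest 5′ reading under the floor. Paired arrays of the double knockout and the IRAK2 knockout correlated at 0.971, 0.966 and 0.976. The double-knockout 0 h array correlated at 0.764 to 0.804 with the other 11, which correlated at 0.954 or more among themselves, and it was not used. The response of the double knockout is therefore set against the mean 0 h level of wild type and IRAK2 knockout. Its own resting levels are not known here, so unstimulated levels given below are those of the other genotypes.

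**Figure D1:**
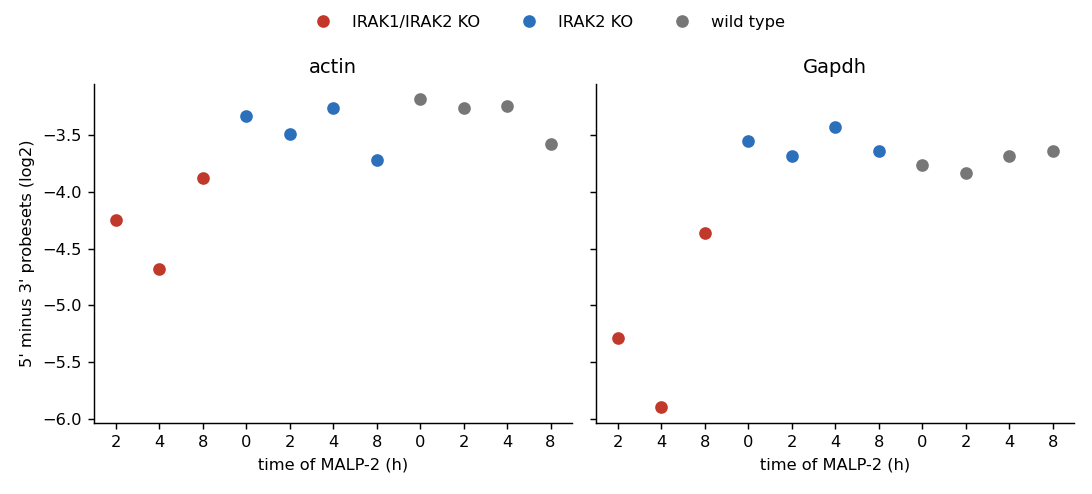
Signal at the 5′ minus the 3′ control probesets (log2, vertical axis) of actin and Gapdh on each array, by time of MALP-2 in h, for the double knockout, the IRAK2 knockout and wild type. The 3 double-knockout arrays lie lowest in both panels, with Gapdh at -5.29, -5.90 and -4.36.

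Many inflammatory transcripts were lower, and many that MALP-2 represses were higher, in the double knockout than in the IRAK2 knockout. In limma, 3487 of 10932 genes differed (31.9% at adjusted p under 0.05), 1521 lower (13.9%) and 1966 higher (18.0%) in the double knockout. With the mean of all probesets of a gene in place of the brightest, the split was 1405 lower and 1010 higher. At least 2-fold were 463 lower (4.24%) and 410 higher (3.75%). The median difference of all genes tested was 0.06. Since there is 1 array for each genotype and time, a p here says how steady a difference was from time to time, and nothing of the spread between mice. Of the called genes 3481 had the same sign at all 3 times, which a call of this kind favours and which adds no support to it. Whichever 1 time was left out, 1244 stayed called.

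The weaker 5′ signal goes along with genotype in these arrays. With the Gapdh 5′ minus 3′ value as a covariate on the 9 stimulated arrays of all 3 genotypes, 166 genes were called (1.52%), 155 of them among the 3487. The same 9 arrays without the covariate gave 1811 lower and 2416 higher. The median SE was 0.28 with the covariate, against 0.14 on the same arrays without it. The sign was the same for 3315 of the 3487 called genes (95.1%) and for 838 of the 873 called at least 2-fold. Where several probesets of a gene called at least 2-fold were above the floor, all of them had the same sign in 297 of 387 genes (76.7%), and in 1080 of 1737 (62.2%) among all called genes. The part of 5′ signal in a given difference was not tested beyond this covariate.

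At single times, with 1 array on each side and therefore no test, 563 genes were at least 2-fold lower (4.78%) and 430 higher (3.65%) in the double knockout at 2 h. The counts were 737 lower (6.19%) and 674 higher (5.66%) at 4 h, and 398 lower (3.4%) and 462 higher (3.94%) at 8 h. The 4 h pair held the most genes. Its double-knockout array also had the lowest 5′ values for Gapdh and actin, and a link between the 2 was not tested. Limma called 977 lower and 1285 higher without the 2 h arrays, 609 and 707 without 4 h, and 1751 and 1935 without 8 h. Each of these fits had 1 residual degree of freedom, against 2 with all times.

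Part of what MALP-2 still induced without IRAK2 was kept without IRAK1 as well, and the rest was reduced or lost. Of genes at least 4-fold above 0 h in the IRAK2 knockout, the double knockout kept 92 of 187 at 2 h (49.2%), 56 of 133 at 4 h (42.1%) and 41 of 107 at 8 h (38.3%), kept meaning within 2-fold of the IRAK2 knockout or above it. Lost were 47, 38 and 41 genes (25.1%, 28.6% and 38.3%), which stood over 2-fold below the IRAK2 knockout and under 2-fold above 0 h. Reduced were 48, 39 and 25. The median differences of these genes were -1.02, -1.14 and -1.46 at 2, 4 and 8 h. Genes chosen for being high in the IRAK2 knockout will tend to read lower elsewhere, so the same was counted for genes induced at least 4-fold in wild type, a choice that uses no stimulated array of either knockout. There 104 of 209 were kept at 2 h, 84 of 190 at 4 h and 97 of 191 at 8 h, and 57, 66 and 70 were lost. In this set kept does not require a response in the IRAK2 knockout, so a gene induced in neither knockout counts as kept. The median response of the double knockout was 1.69, 1.33 and 0.92 log2 over 0 h at 2, 4 and 8 h. The median differences of this set were -1.0, -1.14 and -0.97, without the wider gap at 8 h of the first set. The response left in the IRAK2 knockout also differed between the sets. Its median was 2.60, 2.43 and 2.06 at 2, 4 and 8 h in this set, against 2.73, 2.73 and 2.79 in the first. A smaller response leaves less room for a gap, so the 2 sets are not alike at 8 h.

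**Figure D2:**
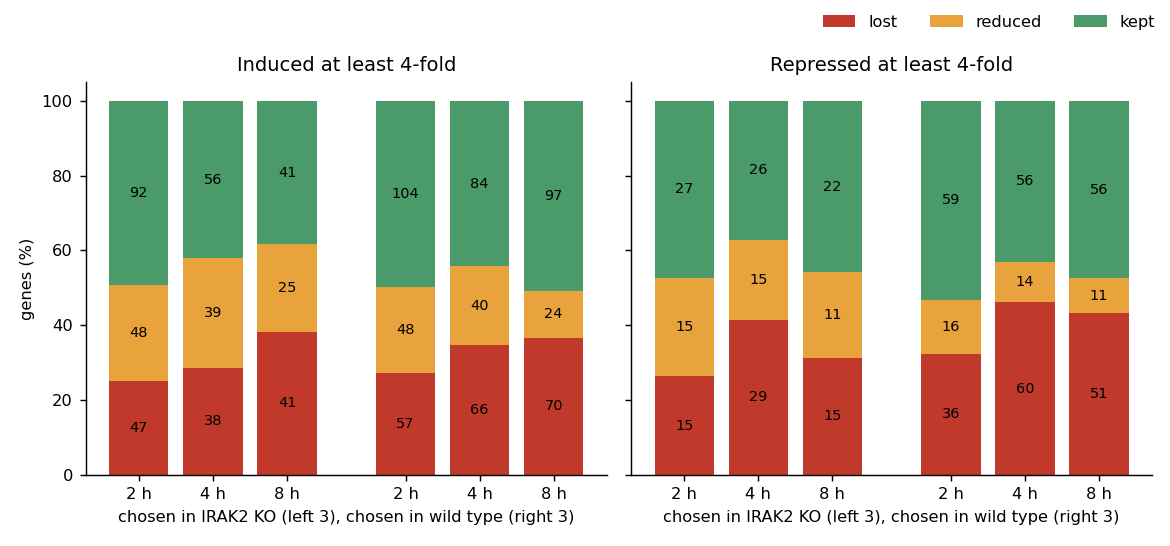
Shares (%) of genes induced (left panel) or repressed (right panel) at least 4-fold by MALP-2 that were lost, reduced or kept in the double knockout, by time in h; numbers in the bars count genes. In each panel the left 3 bars hold genes chosen in the IRAK2 knockout (47 of 187 induced genes lost at 2 h) and the right 3 genes chosen in wild type (57 of 209). In the right 3 bars kept does not require a response in the IRAK2 knockout.

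The classes of single genes were followed over time. Of 77 genes induced in the IRAK2 knockout at all 3 times, 24 were kept, 7 reduced and 9 lost throughout, and 37 changed class. Between 2 and 8 h 32 passed to a lower class and 2 to a higher one, 22 of them being lost at 8 h but not at 2 h. Tnf, Cxcl1, Cxcl3, Cd14, Cd40, Nfkbiz and Icosl were reduced at 2 and 4 h and lost at 8 h. Among 117 genes chosen in wild type, 35 passed to a lower class and 17 to a higher one. A class can change without a change in the gap, where the level of the IRAK2 knockout itself is lower at 8 h.

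**Figure D3:**
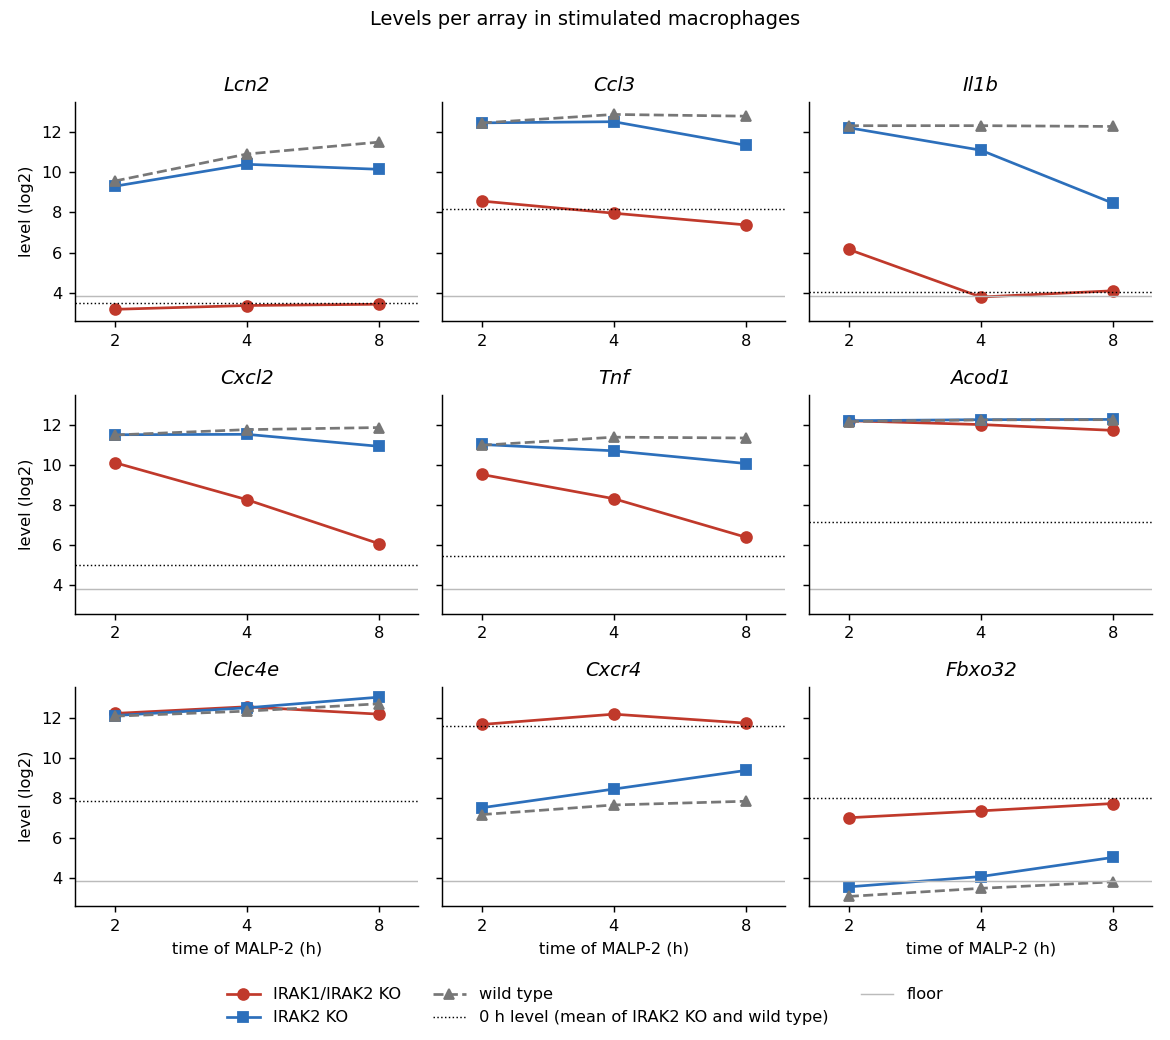
Levels (log2, vertical axis) of 9 genes at 2, 4 and 8 h of MALP-2, 1 array a point, for the double knockout, the IRAK2 knockout and wild type; the dotted line is the 0 h level (mean of IRAK2 knockout and wild type) and the pale line the floor. Lcn2 of the double knockout lies under the floor (3.17 to 3.42), Cxcl2 and Tnf drop towards 0 h (6.08 and 6.40 at 8 h), and Acod1 and Clec4e stay near the other genotypes.

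Genes lost at all 3 times were Lcn2, Ccl3, Gbp2b, Marco, Mmp14, Ms4a4c, Plet1, Ppfia3 and Siglece. Lcn2 had the largest difference of all genes tested. It read 3.17, 3.36 and 3.42 at 2, 4 and 8 h in the double knockout, against 9.31, 10.40 and 10.15 in the IRAK2 knockout. Wild type read 9.57, 10.91 and 11.51. All 3 double-knockout values were under the floor and below the unstimulated arrays of the IRAK2 knockout (3.52) and wild type (3.46), while both of these genotypes induced the gene. The difference was -6.64 (SE 0.19, adjusted p 1.37e-05), and -6.63 with the covariate (adjusted p 0.011). Because the low side lies in the background, the size of the gap is limited by the background of the array.

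Ccl3, a chemokine gene for monocytes and T cells, was already well expressed before stimulation. It read 8.57, 7.96 and 7.38 in the double knockout, against 12.47, 12.53 and 11.35 in the IRAK2 knockout. Its unstimulated levels were 8.37 in the IRAK2 knockout and 7.98 in wild type, and the double knockout read around these (difference -4.14, SE 0.17, adjusted p 6.4e-05; 0.039 with the covariate). Gbp2b, an interferon-inducible GTPase gene, read 3.24, 3.57 and 3.31 in the double knockout, against 7.57, 7.84 and 7.67 in the IRAK2 knockout (-4.32, adjusted p 1.37e-05). Every double-knockout value of Gbp2b was under the floor, and its resting level in that genotype is not known here. Ppfia3, a liprin scaffold gene, read 4.90, 5.92 and 5.28 in the double knockout, against 8.31, 9.48 and 8.36 (-3.35, adjusted p 8.51e-05). Both kept their call with the covariate (adjusted p 0.0029 and 0.011).

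Marco, a scavenger receptor that binds bacteria, climbed with time in the IRAK2 knockout. In the double knockout it read near the unstimulated level found outside that genotype (5.69). It read 5.87, 5.64 and 6.44 in the double knockout, against 7.82, 8.87 and 9.75 in the IRAK2 knockout (-2.83, adjusted p 0.000796). Siglece, an inhibitory receptor for sialic acids, read 3.34, 3.34 and 3.78 in the double knockout, all under the floor, against 5.55, 6.97 and 7.36 (-3.14, adjusted p 0.000641). Plet1 differed by -4.02 at its brightest probeset and by -0.97 at another. None of these 3 was called with the covariate (adjusted p 0.13, 0.14 and 0.12).

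Reduced at all 3 times, with an induction still visible, were Ccl5, Cxcl2, Fpr2, Gpr84, Malt1, Pilrb1 and Traf1. Fpr2, a receptor for formyl peptides of bacteria, held a flat, partial level in the double knockout. It read 9.13, 9.06 and 8.96 there, against 10.76, 11.71 and 12.19 in the IRAK2 knockout and 6.44 in that genotype at 0 h (-2.51, SE 0.27, adjusted p 0.0013). Ccl5, a T cell chemokine gene, read 8.49, 8.70 and 8.20 in the double knockout, against 10.32, 10.52 and 10.20 (-1.88, adjusted p 0.000328; 0.027 with the covariate).

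A further 24 genes were kept at all 3 times. They include the NF-kB inhibitor gene Nfkbie, the receptor genes Tlr2, Clec4e, Olr1 and Met, the adhesion gene Icam1, the MAP kinase phosphatase gene Dusp4, the clotting factor gene F10 and the GTPase genes Gbp2 and Gbp3. A kept gene can still be called: Tlr2 and Icam1 were called lower. Acod1 read 12.21, 12.02 and 11.73 in the double knockout, against 12.21, 12.26 and 12.27 in the IRAK2 knockout and 7.35 in unstimulated wild type (difference -0.26, SE 0.15, adjusted p 0.227). Clec4e read 12.21, 12.54 and 12.17 in the double knockout, against 12.10, 12.49 and 13.02 (-0.23, SE 0.21, adjusted p 0.432). Gbp2b was lost in the same cells in which Gbp2 and Gbp3 were kept. A difference that misses the threshold does not show equal levels.

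Among the 40 genes with the largest mean induction in wild type, 34 were called lower and 0 higher in the double knockout than in the IRAK2 knockout. Of all genes tested 13.9% were called lower and 18.0% higher. The median difference of the 40 was -1.86, against 0.06 over all genes tested. In 32 of the 40 the double knockout was lower by over 1 and in 19 by over 2. Those 19 had double-knockout levels below the IRAK2 knockout on every array, which their choice by size favours and which adds no support. With the covariate 4 of the 19 kept their call (Lcn2, Ccl3, Il1a and Ppfia3). In 5 of the 40 the difference was within 0.5, and none of these was called: Acod1, Clec4e, Nfkbie, Spata13 (-0.33) and Olr1 (the receptor LOX-1 for oxidized LDL, 0.08). Olr1 read 11.39, 10.86 and 9.94 in the double knockout, against 11.31, 10.89 and 9.74 in the IRAK2 knockout. Nfkbie read 10.58, 9.74 and 8.58, against 10.72, 9.74 and 9.39, with the widest gap at 8 h.

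**Figure D4:**
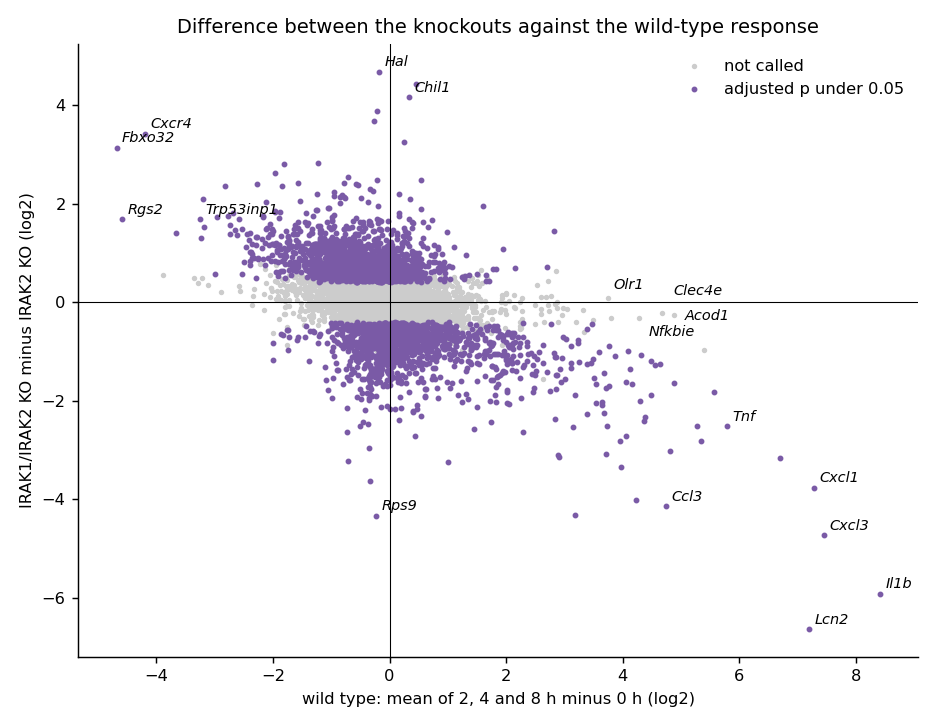
Difference between double knockout and IRAK2 knockout (log2, mean over 2, 4 and 8 h, vertical axis) against the mean response of wild type (log2, horizontal axis) for the 10932 genes tested, 1 point a gene, coloured where the adjusted p is under 0.05. The axes share no array; genes most induced in wild type, such as Lcn2 (-6.64) and Il1b (-5.92), lie low, Acod1 and Clec4e lie near 0, and repressed genes such as Cxcr4 (3.42) lie high.

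Inflammatory cytokine transcripts were lower almost throughout. Of 14 tested, 11 were called lower and 0 higher (median -1.68). Over all genes tested 31.9% were called, 13.9% lower and 18.0% higher. These shares are to be held beside this and the later list counts. Il1b, which makes interleukin 1 beta, was far lower at all 3 times: it read 6.16, 3.79 and 4.09 in the double knockout, against 12.22, 11.11 and 8.46 in the IRAK2 knockout (-5.92, SE 0.46, adjusted p 0.000481). Its double-knockout level was near the floor at 4 and 8 h, when the IRAK2 knockout was still high. Tnf read 9.53, 8.32 and 6.40 in the double knockout, against 11.02, 10.71 and 10.08 (-2.52, adjusted p 0.00285), so a sizeable early induction was left. Il1a read 6.50, 6.13 and 5.95, against 9.45, 9.03 and 8.25 (-2.72, adjusted p 0.000198; 0.044 with the covariate).

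Both interleukin 12 subunit genes were lower. Il12b read 4.16, 3.59 and 3.47 in the double knockout, against 7.11, 6.61 and 4.32 in the IRAK2 knockout (-2.27, adjusted p 0.00586), and Il12a differed by -2.02 (adjusted p 0.00282). Il18 (-1.79), Ebi3 (-1.71), the costimulatory ligand gene Tnfsf9 (-1.65), the activin subunit gene Inhba (-1.44) and Il6 (-1.07) were also called lower. Il6 was weak in the IRAK2 knockout already (5.79, 4.82 and 3.75) and read 3.93, 3.60 and 3.63 in the double knockout. The interleukin 1 receptor antagonist gene Il1rn differed by -0.90, from -0.90 to -0.02 over its 3 probesets. Not called were Lif (-1.12), Osm (-0.57) and Csf1 (0.37). With the covariate 1 member was called, Il1a.

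Most chemokine transcripts were lower, and a few were higher. Of 18 tested, 14 were called lower and 3 higher (median -1.11). The neutrophil-attracting CXCR2 ligand genes had some of the largest differences: Cxcl3 -4.73 (SE 0.49, adjusted p 0.00109), Cxcl1 -3.77 (SE 0.21, adjusted p 0.000163) and Cxcl2 -3.17 (SE 0.54, adjusted p 0.00538). Cxcl1 read 8.63, 6.42 and 5.35 in the double knockout, against 11.87, 10.77 and 9.07 in the IRAK2 knockout. Every double-knockout value lay below every IRAK2-knockout value. Ccl4, another chemokine gene, read 5.20, 4.84 and 4.91 in the double knockout, against 9.01, 8.61 and 6.42 (-3.03, adjusted p 0.0027), at the unstimulated level of 5.16. Smaller differences were read for the monocyte chemokine genes Ccl2 (-1.83) and Ccl7 (-1.07), and for Ccl9 (-1.16), Ccl6 (-1.12), Cxcl10 (-1.09) and Cxcl16 (-0.78), all called. Called higher were Cxcl14 (7.80, 7.36 and 7.43 in the double knockout, against 6.32, 6.19 and 5.54; 1.51, adjusted p 0.00142), Ccl8 (0.84) and Cxcl12 (0.48). The B cell chemokine gene Cxcl13, which was not in the list, had a difference of -3.24 (adjusted p 0.000691; 0.021 with the covariate). Of the list, Ccl3, Ccl5, Ccl9 and Cxcl14 were called with the covariate.

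The NF-kB family and its feedback inhibitors divided by gene. Of 25 tested, 11 were called lower and 0 higher (median -0.45). The share called was 44.0%, all of it lower. Of all genes 13.9% were called lower and 31.9% in either direction. Socs3, an inhibitor of cytokine receptor signalling, read 9.13, 7.74 and 6.55 in the double knockout, against 11.01, 10.49 and 9.47 in the IRAK2 knockout (-2.52, adjusted p 0.000577). Nfkb2, a precursor subunit of NF-kB, differed by -2.08 (adjusted p 0.00133), from -2.08 to -0.85 over its probesets. Zc3h12a, which cuts cytokine messengers, had -1.89 (adjusted p 0.00462), the atypical inhibitor gene Nfkbiz -1.61 (adjusted p 0.000988), the IRAK-family inhibitor gene Irak3 -1.48 (adjusted p 0.00126) and the subunit gene Rel -1.43 (adjusted p 0.00791). Other feedback genes did not pass: Nfkbia differed by -0.35, the deubiquitinase gene Tnfaip3 by -0.40, Relb by -0.19, Bcl3 by 0.18 and the messenger-decay gene Zfp36 by -0.07. Nfkbia read 12.50, 12.34 and 11.67 in the double knockout, against 12.69, 12.52 and 12.35, though its 5 probesets ranged from -2.01 to -0.35. With the covariate 1 member was called, the ubiquitin ligase gene Trim13 (-1.06 without it).

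Genes of the TLR2 and interleukin 1 receptor pathway itself went both ways, 9 lower and 5 higher of 26 tested (median -0.08). The coreceptor gene Cd14 read 10.15, 9.24 and 8.10 in the double knockout, against 11.18, 11.06 and 10.23 in the IRAK2 knockout (-1.66, adjusted p 0.00223). Mapkapk2, a kinase downstream of p38, had -1.25, Tlr1 -1.06, the adaptor gene Myd88 -0.92 and Tlr2 -0.55, all called. Peli2, a ubiquitin ligase gene for IRAK proteins, was higher by 1.19 (adjusted p 0.0178), Traf6 by 0.85 and Ikbkg, a regulatory subunit of the IkB kinase, by 0.85. Probesets of Traf6 disagree, from -0.28 to 0.85, and those of Peli2 range from 0.07 to 1.19. With the covariate 0 members were called.

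Immediate-early and AP-1 genes were 8 lower and 4 higher of 22 tested (median -0.26). Ier3, a survival gene, was at 4.79, 4.77 and 4.65 in the double knockout, against 6.67, 6.78 and 6.21 in the IRAK2 knockout (-1.82, adjusted p 0.000531). Nr4a3, an orphan nuclear receptor gene, had -1.56 (adjusted p 0.0146), most of it at 2 h with 5.34 in the double knockout against 8.09. Klf4, a transcription factor gene, was higher by 1.64 (adjusted p 0.0015), and Fos, Jun and Egr2 by 0.78, 0.75 and 0.88. Klf4, Fos and Jun had 6.17, 6.83 and 8.51 in the IRAK2 knockout at 2 h, below its 0 h levels of 7.01, 8.62 and 10.28. Myc, at -1.07 (adjusted p 0.0446), stood at 0.40 with the covariate.

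Secondary-response genes, which need newly made regulators, were 16 lower and 0 higher of 21 tested (median -1.02). Besides Lcn2 and Marco they include Mefv, the pyrin gene, which read 6.99, 4.68 and 4.34 in the double knockout, against 8.80, 7.46 and 7.0 in the IRAK2 knockout (-2.41, adjusted p 0.000577). The list also holds regulator genes themselves, Cebpd and Cebpb, which differed by -2.06 (adjusted p 0.000797) and -0.83. Some of its called members, such as Lcn2, Il6 and Il12b, are counted in other lists too. Saa3, an acute-phase gene, read 10.63, 10.69 and 10.71 in the double knockout, against 12.21, 12.59 and 12.87 in the IRAK2 knockout and 11.48 in that genotype at 0 h (-1.88, adjusted p 0.000554). In the list of iron handling and acute phase, 8 of 11 tested were called lower and 1 higher (median -0.71). Hp, the haptoglobin gene, rose with time in both genotypes at different levels, with 3.93, 5.86 and 7.21 in the double knockout against 6.14, 8.13 and 9.13 (-2.14, adjusted p 0.000259; 0.023 with the covariate). The iron exporter gene Slc40a1, lowered by MALP-2 in the IRAK2 knockout, was higher by 1.49 (adjusted p 0.00498). Lcn2, Hp and Saa3 (adjusted p 0.0499) were called with the covariate.

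Pattern-recognition receptor genes were 8 lower and 1 higher of 15 tested (median -0.55). Nlrp3, the inflammasome sensor gene, read 9.74, 8.57 and 7.37 in the double knockout, against 10.29, 9.82 and 8.96 in the IRAK2 knockout (-1.13, adjusted p 0.00689). Clec5a had -1.11 and Clec4a2 -1.01, while Clec4d (-0.10) and Clec7a (0.37) were not called. The mannose receptor gene Mrc1 was higher (1.25, adjusted p 0.00292). In the prostaglandin, nitric oxide, itaconate and arginine list 6 of 15 tested were called lower and 0 higher (median -0.25). Ptgs2, the inducible cyclooxygenase gene, read 6.95, 6.04 and 5.72 in the double knockout, against 10.49, 9.57 and 7.11 (-2.82, adjusted p 0.00279). Gch1, needed for the nitric oxide synthase cofactor, had -1.14, though its other probeset had 0.24. Ptges, the prostaglandin E synthase gene, had -1.12 and Arg2 -1.02. In the antigen presentation and costimulation list 4 of 19 tested were lower and 2 higher (median -0.05), 31.6% called against 31.9% of all genes. Icosl read 10.06, 8.27 and 6.84 in the double knockout, against 11.25, 10.65 and 10.26 (-2.33, adjusted p 0.00384), and Cd40 had -1.35. The class II genes H2-Aa and H2-Eb1 were higher by 0.70 and 0.69.

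**Figure D5:**
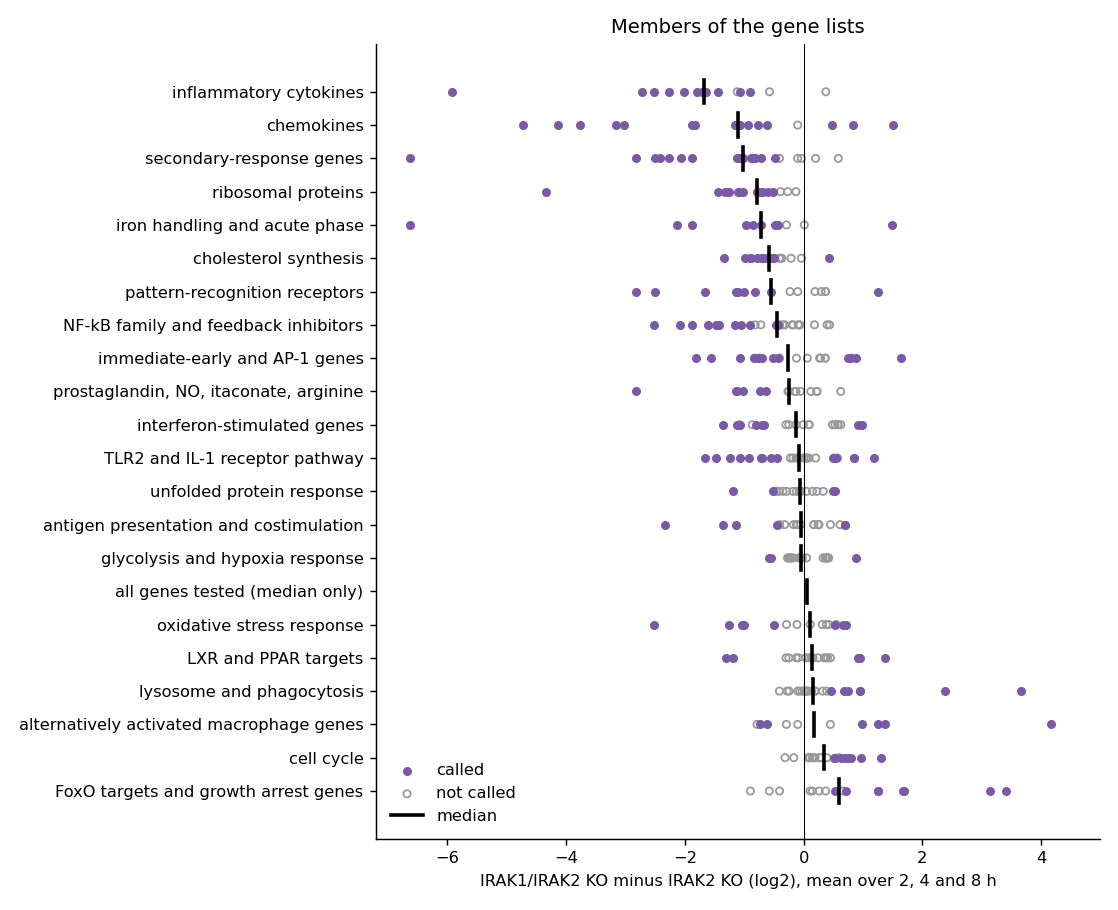
Differences between double knockout and IRAK2 knockout (log2, mean over 2, 4 and 8 h, horizontal axis) of the tested members of 21 gene lists, 1 point a gene, filled where called; bars are list medians, with that of all genes tested (0.06) for comparison. Cytokines (median -1.68) and chemokines (-1.11) lie furthest to the lower side and FoxO targets (0.60) furthest to the higher side.

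Among the genes on the higher side were some that MALP-2 represses. Of genes at least 4-fold below 0 h in the IRAK2 knockout, 27 of 57 stayed repressed in the double knockout at 2 h, 26 of 70 at 4 h and 22 of 48 at 8 h. The repression was lost for 15, 29 and 15 genes, whose median differences together with the rest of each set were 1.06, 1.29 and 1.12. Of genes repressed at least 4-fold in wild type, 59 of 111, 56 of 130 and 56 of 118 were kept and 36, 60 and 51 lost. Here too kept means not over 2-fold above the IRAK2 knockout, and requires no repression in that genotype. The median response of the double knockout in this set was -1.19, -0.96 and -0.79 log2 at 2, 4 and 8 h. Cxcr4 and Fbxo32 were the genes lost at all 3 times when chosen in the IRAK2 knockout, and Thbd, the thrombomodulin gene, the one kept at all 3.

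Cxcr4, the receptor that holds leukocytes near CXCL12, read 11.66, 12.17 and 11.73 in the double knockout, against 7.51, 8.44 and 9.37 in the IRAK2 knockout (3.42, SE 0.31, adjusted p 0.000715; 0.078 with the covariate). Its unstimulated level was 11.45 in the IRAK2 knockout and 11.74 in wild type, and the double knockout read near these levels. Fbxo32, a ubiquitin ligase subunit gene, read 7.01, 7.35 and 7.72 in the double knockout, against 3.56, 4.08 and 5.03 (3.14, SE 0.18, adjusted p 0.000163; 0.019 with the covariate). Its 3 probesets ranged from 2.19 to 3.14. Rgs2, a brake on G protein signalling, showed a partial effect: 7.97, 9.39 and 8.95 in the double knockout, against 5.62, 7.50 and 8.15, with 10.51 before stimulation (1.68, adjusted p 0.00465).

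These genes recur in the list of FoxO targets and growth arrest genes, in which 8 of 16 tested were called higher and 0 lower (median 0.60). Besides Cxcr4, Fbxo32 and Rgs2 they are Trp53inp1 (1.68, adjusted p 0.000797), Ccng2 (1.26), the cyclin kinase inhibitor gene Cdkn1b (1.25), Il7r (0.71) and Sesn3 (0.53). Cdkn1b read 8.52, 8.61 and 8.75 in the double knockout, against 7.33, 7.07 and 7.71 in the IRAK2 knockout and 8.48 before stimulation. With the covariate 1 member was called, Fbxo32. Without the covariate, 18.0% of all genes tested were called higher and 13.9% lower. Of the 20 genes most repressed in wild type, 14 were called higher and 0 lower (median 1.46), 13 of them by over 1. Among these the protein-quality regulator gene Crebrf had 2.08 (adjusted p 0.000471), the microtubule-linked gene Mtus1 2.35 (adjusted p 0.000508), the ubiquitin ligase gene Rnf144b 1.52, Arhgap25 1.56 and the lysophosphatidic acid receptor gene Lpar6 1.40. With the covariate 4 of the 13 were called: Fbxo32, Lpar6, Crebrf and Mtus1.

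Some higher transcripts were close to the floor in the IRAK2 knockout with MALP-2 and without it. Hal, which breaks down histidine, read 8.95, 7.78 and 8.58 in the double knockout, against 3.85, 3.87 and 3.56 in the IRAK2 knockout (4.67, SE 0.24, adjusted p 0.000121), and wild type was as low (3.55, 3.47 and 3.79). Chil1, a chitinase-like gene, read 8.18, 7.89 and 7.70, against 3.50, 4.04 and 3.73 (4.16, SE 0.19, adjusted p 8.51e-05). Ctse, the protease gene for cathepsin E, read 7.65, 7.18 and 6.25, against 3.44, 3.25 and 3.39 (3.67, adjusted p 0.000285). Before stimulation they read 4.50, 3.52 and 4.05 in the IRAK2 knockout. Hook1, a transport gene, was of the same kind (2.48). Of the other large differences, Zranb3, a DNA repair gene (2.41), and Eya4, a transcription cofactor gene (2.62), fell with MALP-2 in the IRAK2 knockout, from 8.11 and 6.54 at 0 h to 6.59 and 4.76 at 2 h. Plekhg1 (3.25), the phosphodiesterase gene Pde1c (2.82), the phospholipase gene Gdpd3 (2.53) and the desmosome gene Pkp2 (2.49) complete the set.

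Some of the largest differences do not follow the knockouts in an orderly way or rest on 1 probeset. Ifi202b, an interferon-inducible gene, read 9.84, 8.90 and 8.21 in the double knockout, against 4.68, 4.59 and 4.43 in the IRAK2 knockout, but 8.37, 7.93 and 7.98 in wild type (4.42, adjusted p 0.000163). Mcoln3, a lysosomal channel gene, read 5.85, 6.27 and 5.93, against 3.28, 3.12 and 3.25, with 5.09, 3.87 and 4.15 in wild type (2.80). Before stimulation Mcoln3 read 3.27 in the IRAK2 knockout and 6.19 in wild type, so the IRAK2 knockout was the low genotype at rest too. Ifi209, of the same family as Ifi202b, was lower by -3.23 at one probeset and -0.39 at the other. Cep85 had 3.87 and -0.16 at its 2 probesets, Atp5g2, a subunit of ATP synthase, -3.64 and -0.18, and Rps9 from -4.34 to -0.38 over 3. Of the 15 largest higher differences 13 were called with the covariate, and of the 15 largest lower ones 7.

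Ribosomal protein genes were lower together, 14 of 17 tested called lower and 0 higher (median -0.78, and -0.81 with the covariate, where Rps9 alone was called). Besides Rps9 the largest were Rpl8 (8.32, 8.34 and 8.47 in the double knockout, against 9.73, 9.97 and 9.75 in the IRAK2 knockout; -1.44, adjusted p 0.000883), Rps14 (-1.32) and Rpl19 (-1.30). Rpl8 read 9.77 in the IRAK2 knockout before stimulation, close to its level with MALP-2. Cholesterol synthesis genes were 12 lower and 1 higher of 18 tested (median -0.59, but -0.06 with the covariate and 0 called). Pmvk, a kinase of the mevalonate pathway, differed by -1.35 (adjusted p 0.00531), Cyp51 by -0.99, Fdps by -0.90 and Mvk by -0.89, while Dhcr7, the last enzyme, was higher by 0.43. The list median differed most at 4 h (-0.84, against -0.45 at 2 h and -0.34 at 8 h).

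Interferon-stimulated genes were 6 lower and 2 higher of 21 tested (median -0.13), 38.1% called against 31.9% of all genes. Mx1, an antiviral GTPase gene, read 5.20, 5.88 and 5.70 in the double knockout, against 7.15, 6.77 and 6.96 in the IRAK2 knockout (-1.36, adjusted p 0.00375). Usp18 (-1.12) and the nucleic acid sensor gene Zbp1 (-1.08) were lower too, and Oasl2 was higher by 0.91. Xaf1 was higher by 0.98 at its brightest probeset and lower by -1.65 at the other, so no direction is given for it. Alternatively activated macrophage genes were 2 lower and 4 higher of 10 tested (median 0.18): Chil1, Retnla (8.00, 8.01 and 7.78 in the double knockout, against 6.62, 6.57 and 6.47; 1.38, adjusted p 0.000831), Mrc1 and Socs2 were higher and Arg1 and Ccl17 lower. Chil1 and Retnla kept their call with the covariate (adjusted p 0.015 and 0.042).

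Lysosome and phagocytosis genes were 0 lower and 7 higher of 22 tested (median 0.16), led by Ctse and by Glb1, the galactosidase gene (7.99, 8.18 and 8.04 in the double knockout, against 5.57, 5.86 and 5.66; 2.38, adjusted p 0.000163). Ctsl had 0.95 at one probeset and -4.34 at another. Cell cycle genes were 0 lower and 8 higher of 20 (median 0.34), with Ccnd1, cyclin D1, at 1.31 (adjusted p 0.00109), Bub1 at 0.97 and Mcm2 at 0.80. LXR and PPAR targets were 2 lower and 3 higher of 19 (median 0.15): the fatty acid binding gene Fabp4 had 1.36, Mertk 0.95 and Cpt1a 0.91, while Apoe had -1.32 and Nr1h3 -1.19 (0.06 with the covariate). Oxidative stress genes were 5 lower and 3 higher of 15 (median 0.11), with the cystine transporter gene Slc7a11 at -1.26 and Sod2 at -1.04. Sod1, at -2.51, had 0.57 at another probeset. Glycolysis and hypoxia genes were 2 lower and 1 higher of 21 (median -0.04), with Hk3 at 0.88, Tpi1 at -0.58 and Pfkl at -0.56. Unfolded protein response genes were 2 lower and 2 higher of 17 (median -0.07), with Sdf2l1 at -1.19, which stood at 0.04 with the covariate. The shares called were 31.8% for the lysosome list, 26.3% for LXR and PPAR targets, 23.5% for the unfolded protein response and 14.3% for glycolysis, near or below the 31.9% of all genes. The lysosome calls were all higher, a direction in which 18.0% of all genes were called.

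Whether the gap itself changed between 2 and 8 h was asked by comparing the slopes of both knockouts on log2 time, fitted on 9 arrays with wild type. In limma 1 of 10932 genes was called (0.00915%), and 1420 had an unadjusted p under 0.05. That gene was Cxcl2: 10.12, 8.28 and 6.08 at 2, 4 and 8 h in the double knockout, against 11.51, 11.53 and 10.94 in the IRAK2 knockout. The difference changed by -1.73 with each doubling of time (adjusted p 0.048). With the 6 arrays alone 0 genes were called, and 1063 had an unadjusted p under 0.05. The next genes by p did not pass. Icosl had -1.11, the collagen cross-linker gene Lox -1.21, Oasl1 -1.19, Cxcl3 -1.56, Tnf -1.09 and the Ras activator gene Rasgrp1 -1.11, with adjusted p between 0.10 and 0.15. Rasgrp1 read 8.39, 7.94 and 6.81 in the double knockout, against 8.35, 8.70 and 8.99 in the IRAK2 knockout. In the other direction stood Heg1 (1.21), Tpbg (1.22) and Nfatc2 (1.01), also not called.

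Markers of other cells were in part under the floor. Of the macrophage markers, 10 of 10 read were above it in both knockouts, their summed level being 91.8 to 93.1 in the double knockout and 94.6 to 96.0 in the IRAK2 knockout; Cd14, Fcgr1 (-0.66) and Adgre1 (-0.60) were called lower and Mertk and Cebpa (0.80) higher. Csf1r and Lyz2 had 0.21 and -0.20 and were not called. Of 12 neutrophil markers 6 were tested and 3 called lower: S100a8 (9.41, 9.30 and 9.09 in the double knockout, against 10.49, 10.81 and 10.84; -1.45, adjusted p 0.00149), Csf3r (-0.81) and Camp (-0.63). Their summed level over 12 read was 54.7 to 55.8 in the double knockout and 58.0 to 59.2 in the IRAK2 knockout, and Ngp, Ltf, Mpo, Elane, Cxcr2 and Cd177 were under the floor on all 6 arrays. Of 12 eosinophil and mast cell markers 5 were tested, and Siglecf (1.22, adjusted p 0.00248) and Cpa3 (0.89) were higher. Their summed level was 48.3 to 49.7 in the double knockout and 44.4 to 46.5 in the IRAK2 knockout, with Ccr3, Epx, Prg2, Mcpt4, Ms4a2 and Fcer1a under the floor on all 6. Ighm (1.67) was the B cell marker called among 5 tested, Cd3e (0.72) the T cell marker among 2, Zbtb46 (0.88) the dendritic cell marker among 3, and Krt8 (1.5) and Dcn (-0.50) the stromal ones among 8. Of the erythroid markers 0 were tested. The part of other cells in the results was not tested, and in whole samples fewer cells of a type and less transcript per cell cannot be told apart. Of 11 tested genes beside Irak1, 3 were lower (Emd -0.70, Renbp -0.66, Arhgap4 -0.55) and 2 higher (Ikbkg 0.85, L1cam 0.51). Of 11 beside Irak2, Sec13 (-0.78) and Brk1 (-0.55) were lower. The shares called were 45.5% beside Irak1 and 18.2% beside Irak2, against 31.9% of all genes. Of 4 sex-linked genes tested 0 were called.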

How the data were processed

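Biotin-labelled RNA was prepared with the NuGEN Ovation system and hybridised to Affymetrix arrays, per the labels' protocols. The deposited values are log2 levels, 1 per probeset and array, made by the authors with RMA, per the submitters' processing notes, of a version the sources used here do not give. RMA equalises the arrays' distributions, so a shift common to most genes cannot be seen. Of 45101 probesets, 34958 carry 1 symbol, 932 several and 9211 none; symbols were updated through gene identifiers for 34754. Each of 18194 genes was read from the probeset with the highest mean over the 11 arrays other than double-knockout 0 h, 9012 genes having more than 1.

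Differences were fitted with limma 3.58.1 in R 4.3.3 on 6 arrays, with time as a factor and genotype (2 residual degrees of freedom, prior 5.41), for 10932 genes, and called at a Benjamini-Hochberg adjusted p under 0.05. Slopes on log2 time were fitted on 9 arrays. In data simulated on these genes, limma was tested with known changes before use. The simulated noise was independent from array to array and held no 5′ difference between genotypes, so that test says nothing of such a difference. With 1 array for each genotype and time, the number of arrays limits the precision. Members and lists were chosen with earlier results of these data known. Named genes are Irak1 and Irak2, the 15 largest called differences each way, up to 4 called members of each list, members of the 40 most induced and 20 most repressed wild-type genes by size of difference, and the 10 smallest slope p-values; further list members are given for context and were picked after their values were seen. Alternatives covered the arrays in the fit, the time term, centring, filters, probesets, the variance prior, the covariate and leaving out each time. Classes of genes chosen in wild type and the loose NF-kB-like letters were added after seeing the data.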

Additional observations from a re-analysis of the deposited data

Results flagged for a closer look

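Cxcl2 was the 1 gene whose difference between the double knockout and the IRAK2 knockout was called as changing between 2 and 8 h (-1.73 log2 with each doubling of time in limma on 9 arrays, adjusted p 0.048). The double knockout had 10.12 at 2 h, against 11.51 in the IRAK2 knockout, and 6.08 at 8 h, against 10.94. On the 6 arrays without wild type it was not called.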

How the results depend on the processing

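How many genes were called depended on the fit. Called lower and higher genes (1521 and 1966) numbered 903 and 1007 without the time term and 69 and 97 with the Gapdh covariate on 9 arrays (1811 and 2416 on these without it), all of those 69 and 97 at least 2-fold (460 and 410 on the 9 arrays without it). With the mean of all probesets 1010 genes were higher, 150 of them at least 2-fold. Leaving out 1 time gave 609 to 1751 lower and 707 to 1935 higher, the fewest without 4 h. At 3-fold in place of 2-fold, 170, 244 and 114 genes were lower and 84, 168 and 100 higher at 2, 4 and 8 h, and with the mean of probesets 162, 266 and 184 were higher at 2-fold. Choosing induced genes at 2-fold gave 67.7%, 59.3% and 61.0% kept at 2, 4 and 8 h, and repressed genes 74.5%, 61.2% and 61.4%. The mean of probesets gave 33.3% of induced genes kept at 4 h and 14.8% of repressed genes lost at 2 h. Chosen in wild type, 50.8% of induced genes were kept at 8 h, with no response required in the IRAK2 knockout. The slope contrast called 0 genes on the 6 arrays. The causes were not tested.

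Of 141 named genes that were called, the covariate left 33 called with the same sign, 105 with the same sign and not called, and 3 reversed: Myc 0.40, Nr1h3 0.058 and Sdf2l1 0.043. Uncalled Heg1 (0.64) and Nfatc2 (0.85) also reversed under it. Without the time term 43 lost their call, without 4 h 28, without 2 h 13 and without 8 h 3, and centring the arrays or dropping the filter ended none. Ctsl (-1.70) and Xaf1 (-0.33) reversed with the mean of probesets, as did Nfatc2 (0.12). Irak2 had -0.025 with centred arrays. Leaving out 1 time gave -0.21 to 0.17 for Irak2, -0.40 to 0.079 for Clec4e and -0.62 to 0.39 for Nfatc2, none of them called in all arrays.

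The labels give no pairing by animal, since every array has the same replicate number. The arrays were paired by time, which is a term of the fit, and its removal is given above.

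Limits: 1 array stands for each genotype and time, the 5′ signal of the double knockout differs from that of the other arrays, and the double-knockout 0 h array could not serve as its baseline. Where a level lies under the floor the size of a difference is bounded by background.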
